A study of Homo sapiens with 6 samples.

Results

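The APOBEC3 cytidine deaminases are 7 human genes, APOBEC3A, APOBEC3B, APOBEC3C, APOBEC3D, APOBEC3F, APOBEC3G and APOBEC3H, chosen here by name. All 7 were among the 63677 gene identifiers of the counts table, and 5 of them had more than 10 counts in total and entered the test with 21729 genes. RNA was measured in UWB1.289, a human ovarian cancer cell line that the study describes as BRCA1-deficient and whose genotype the labels give as WT. Cells received 4 µM Olaparib, a PARP inhibitor, or DMSO as the vehicle for 24 h, with 3 samples per group from separate dishes of this cell line. The labels give 4 µM, whereas the design text of the series gives 10 µM.

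APOBEC3 enzymes remove the amino group from cytosine in single-stranded DNA and so turn it into uracil. They act in innate immunity by editing the DNA copies of retroviruses and other mobile elements, several members are induced by interferon, and they are best known from lymphocytes and myeloid cells. In epithelial tumours APOBEC3A and APOBEC3B are known as sources of C-to-T and C-to-G mutations, and uracil left in DNA is removed by the glycosylase UNG. Olaparib leaves DNA breaks unrepaired in BRCA1-deficient cells, and the question here was how the transcripts of this family stood after 24 h of treatment.

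UWB1.289 cells carried essentially the transcripts of APOBEC3B and APOBEC3C, with APOBEC3F far below and the other 4 members at or near 0 counts. After Olaparib, APOBEC3B rose by 13.9% (fold 1.14, 95% interval 1.07 to 1.22), which passed an adjusted p of 0.05 but not the further condition of a fold above 1.2. With a sample left out, APOBEC3B passed that adjusted p in 3 of 6 fits. APOBEC3C had a log2 fold change of 0.12 and did not pass. Whether APOBEC3B rose more than APOBEC3C could not be decided. None of the 7 members passed both conditions.

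The libraries held between 35360458 and 39640775 counts, and the TMM factors of edgeR lay between 0.995 and 1.01. In each group 1 library stood apart over 15525 genes. DMSO replicate 1 differed from the other DMSO samples with a chi-square of 4.02 and 4.11 per degree of freedom, against 1.80 between those, and Olaparib replicate 1 with 3.80 and 3.35, against 2.28. Values are given as normalised counts, which are counts scaled to the mean library size. Of 8 ovarian carcinoma markers, WT1 had 8 counts in total, whereas PAX8, KRT7, KRT8, KRT18, EPCAM, MUC16 and MSLN each had 10163 or more. Of 9 leukocyte markers, which mark cells rich in APOBEC3 transcripts, CD3D and NKG7 had 0 counts in every library, and 4 of the 9 had 10 counts or fewer in total. PTPRC had 403 counts in total and CD14 had 261, the most of the list. CD14 was higher in every Olaparib sample than in any DMSO sample (log2 fold change 0.42, adjusted p = 0.26, edgeR). The summed normalised counts of the leukocyte list lay between 125 and 151 after Olaparib and between 106 and 132 after DMSO, and none of its 5 tested genes passed an adjusted p of 0.05 in edgeR's quasi-likelihood test.

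The 7 genes lie head to tail on the forward strand of chromosome 22 (GRCh38, GENCODE annotation), within 151.3 kb. APOBEC3A (ENSG00000128383) spans 38952741 to 38963184, APOBEC3B (ENSG00000179750) 38982347 to 38992804 and APOBEC3C (ENSG00000244509) 39014257 to 39020352. APOBEC3D (ENSG00000243811) spans 39021113 to 39033277, APOBEC3F (ENSG00000128394) 39040604 to 39055972, APOBEC3G (ENSG00000239713) 39077067 to 39087743 and APOBEC3H (ENSG00000100298) 39097224 to 39104067.

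Of the 7 members, 1 had an entry in the RefSeq promoter table (GRCh38.p14), APOBEC3H, and APOBEC3A, APOBEC3B, APOBEC3C, APOBEC3D, APOBEC3F and APOBEC3G had none. The promoter of APOBEC3H is printed beside that of IFIT1, an interferon-induced gene that rose in these cells. The members are discussed as interferon-linked genes, and the 2 windows differ in exact matches to a core motif of the interferon response. Near matches to the motif were not searched. Each window covers 250 bases before to 50 bases after the start that the promoter table uses, on the forward strand. The windows lie at chr22:39096994-39097293 for APOBEC3H and chr10:89392373-89392672 for IFIT1. For APOBEC3H this start is not the first base of the GENCODE span given above. Capitals mark the core of the interferon-stimulated response element (ISRE) (the letters GAAA, any 2 bases and GAAA again), searched on both strands.
APOBEC3H: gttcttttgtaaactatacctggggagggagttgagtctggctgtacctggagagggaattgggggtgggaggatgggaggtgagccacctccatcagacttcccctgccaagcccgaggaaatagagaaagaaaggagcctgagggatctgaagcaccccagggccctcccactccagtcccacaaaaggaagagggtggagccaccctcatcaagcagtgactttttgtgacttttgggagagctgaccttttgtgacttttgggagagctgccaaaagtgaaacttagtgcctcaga
IFIT1: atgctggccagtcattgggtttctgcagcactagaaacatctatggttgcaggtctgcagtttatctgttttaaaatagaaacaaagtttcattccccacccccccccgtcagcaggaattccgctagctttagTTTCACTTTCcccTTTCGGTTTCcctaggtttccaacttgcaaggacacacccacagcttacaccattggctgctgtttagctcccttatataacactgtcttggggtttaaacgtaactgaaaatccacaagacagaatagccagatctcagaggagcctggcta
The ISRE core had 2 matches in the IFIT1 window, both on the reverse strand, and 0 in that of APOBEC3H. It occurred in 3.57% of the 35116 promoters of the table and in 13 of the 15 genes in the table that belong to a reference list of interferon-induced genes. The APOBEC3H window also held 0 matches of the GAS motif TTCNNNGAA, an NF-kB motif (GGG, any 2 bases and TTTCC), the CHR motif TTTGAA and the E2F motif TTCCCGC, which occurred in 7.66%, 1.91%, 15.2% and 6.55% of all promoters. No match says only that these letters are not in this window.

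APOBEC3B, a nuclear enzyme with a tandem pair of deaminase domains, was the most abundant member. The Olaparib samples had 969.7, 994 and 1023 normalised counts of APOBEC3B, and the DMSO samples 850.1, 869 and 902. All 3 treated samples lay above all 3 control samples, and the means were 996 ± 26.7 (SD, n = 3) and 874 ± 26.1 (n = 3). On the log2 scale the difference was 0.19 (SE 0.047, 95% interval 0.093 to 0.28), with an adjusted p of 0.0161 by the quasi-likelihood test of edgeR, adjusted over all genes tested after Benjamini and Hochberg. The interval includes the log2 of the fold limit, 0.26. In RNA from bulk cells, a change in the number of cells with a transcript and a change in RNA per cell cannot be told apart. The exact permutation test on the normalised counts gave p = 0.1 (two-sided), the smallest that 3 samples against 3 allow.

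Counting alone gives a coefficient of variation of 3.27% per library at the depth of APOBEC3B, and the replicates varied by 2.68% after Olaparib and 2.98% after DMSO. The adjusted p of APOBEC3B was under 0.05 in 3 of the 6 fits without a sample. In the other fits the adjusted p was 0.123 without Olaparib replicate 3, 0.133 without DMSO replicate 1 and 0.0665 without DMSO replicate 2 (all edgeR), with log2 fold changes of 0.17, 0.17 and 0.18. DMSO replicate 1, the control library that stood apart, had the lowest APOBEC3B value. With DESeq2's Wald test on all 6 samples the adjusted p of APOBEC3B was 0.0498, just under the threshold.

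APOBEC3C, a smaller enzyme with a lone deaminase domain that is widely expressed, was the next most abundant. It had 840.2, 827 and 840.1 normalised counts after Olaparib and 780.1, 753 and 776 after DMSO. The groups did not overlap, and the means were 836 ± 7.68 and 769.6 ± 14.4 (SD, n = 3 each). On the log2 scale the difference was 0.12 (SE 0.047, 95% interval 0.023 to 0.21). Its p was 0.0164 before and 0.189 after adjustment (edgeR), so APOBEC3C did not pass. Its replicates varied by 0.919% after Olaparib and 1.87% after DMSO, below the 3.53% that counting gives per library.

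APOBEC3B was also set against APOBEC3C within each sample. On the TPM scale (counts divided by exon length and scaled to the same total in each library), the ratio of APOBEC3B to APOBEC3C was 1.61, 1.68 and 1.70 after Olaparib and 1.52, 1.61 and 1.62 after DMSO. The means were 1.66 ± 0.0462 and 1.58 ± 0.0554 (SD, n = 3 each), and the groups overlapped only in that the lowest Olaparib sample lay below the highest DMSO sample. The exact permutation test (two-sided) gave p = 0.2 and cannot go below 0.1 with 3 samples against 3, so whether APOBEC3B rose more than APOBEC3C could not be decided by it.

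APOBEC3F, known with APOBEC3G for restricting HIV-1 that lacks Vif, had 27.3, 25.6 and 18.9 normalised counts after Olaparib and 16.7, 22.6 and 18.0 after DMSO. Olaparib replicate 3 lay among the DMSO samples. The log2 fold change was 0.32 with a 95% interval of -0.20 to 0.84 (adjusted p = 0.621, edgeR), an interval that holds folds from 0.87 to 1.79.

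APOBEC3D, another member active against retroviruses, had 2, 2 and 5 reads after Olaparib and 4, 2 and 4 after DMSO. Its 9 and 10 reads per group gave a ratio of 0.919 with an exact 95% counting interval of 0.33 to 2.52. APOBEC3G, the founding anti-HIV member and typical of T cells, had 4, 0 and 2 reads after Olaparib and 0, 1 and 4 after DMSO, a ratio of 1.22 with an interval of 0.311 to 5.08. Neither change could be measured, with adjusted p values of 0.958 and 0.94 from edgeR. These 2 intervals cover counting error only.

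APOBEC3A, a potent mutator in cell models and a typical interferon-induced transcript of monocytes, had 1 read in DMSO replicate 3 and 0 in the other 5 libraries. APOBEC3H, whose protein is known for haplotypes of unequal stability, had 1 read in DMSO replicate 1 and 0 in the others. Neither entered the test. A count of 0 in a library allows an expected count of up to about 3 reads there, which is a level of 0.0757 to 0.0848 CPM here. A count of 0 therefore does not show that a transcript was absent.

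**Figure D1:**
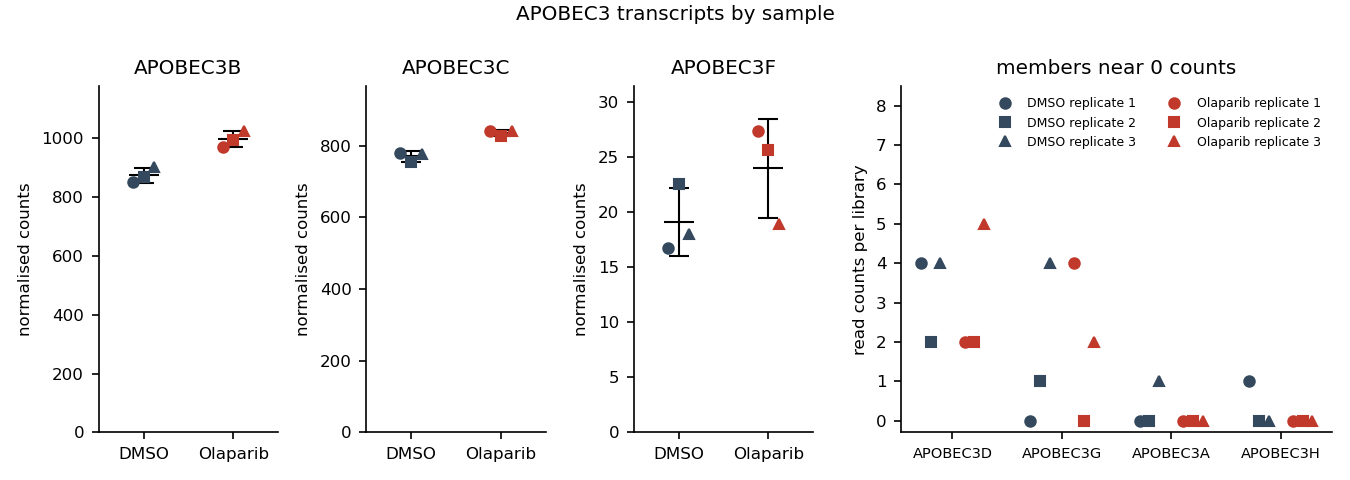
Normalised counts of APOBEC3B, APOBEC3C and APOBEC3F by group (axes start at 0, the middle line and error bars are the mean and SD of 3 samples) and read counts per library of the 4 members near 0, with replicates 1, 2 and 3 as circles, squares and triangles. APOBEC3B and APOBEC3C do not overlap between groups, APOBEC3F does, and no library holds more than 5 reads of the other members.

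Per exon length the order of the members was the same in every sample for the 3 most abundant ones. APOBEC3B had a mean level of 51.0 ± 1.2 TPM after Olaparib and 44.9 ± 0.748 after DMSO (SD, n = 3), APOBEC3C 30.7 ± 0.334 and 28.4 ± 0.778, and APOBEC3F 0.446 ± 0.0844 and 0.357 ± 0.0555. These neighbours in the order lay apart by more than their spread, whereas APOBEC3D, APOBEC3G, APOBEC3A and APOBEC3H, with mean levels of 0.128 TPM or less in either group, could not be ordered by these counts. Among 14700 tested protein-coding genes, the mean level of APOBEC3B stood above that of 77.4%, that of APOBEC3C above 67.3% and that of APOBEC3F above 13.2%. APOBEC3B made up 62.0% of the family's summed TPM after Olaparib and 60.8% after DMSO, and APOBEC3C 37.3% and 38.4%.

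Members of the family are similar in sequence, and how reads that match several genes were counted is not given in the sources used here. Of the distinct 50-base stretches in the annotated APOBEC3B transcripts, 26.9% also occurred in transcripts of another gene of the counts table, most often APOBEC3A (14.1%). With stretches of 100 bases the share was 14.7%. The corresponding shares at 50 bases were 1.21% for APOBEC3C, 11.9% for APOBEC3F and 18.8% for APOBEC3D. Of the 50-base stretches of APOBEC3A, 79.2% occurred in no other listed gene, and APOBEC3A had 1 read in all. The counts of APOBEC3B are uncertain to the extent of its shared stretches, while few stretches of APOBEC3C occurred in another listed gene. Genes outside the counts table were not searched.

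APOBEC3B-AS1, an antisense RNA that covers 12.9% of the exonic bases of APOBEC3B, had 4 reads in total over the 6 libraries, against 5606 of APOBEC3B. The study made its libraries with a stranded kit, but the strand setting of the counting is not given in the sources used here. Whether reads from the 2 genes in that stretch were counted apart is therefore not known. Of the exonic bases of APOBEC3D, 83.2% overlap ENSG00000284554, a protein-coding locus on the same strand that starts within APOBEC3C. This locus is not among the identifiers of the counts table.

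Counts of members were set beside those of all genes tested. In edgeR's quasi-likelihood test 1 of the 5 tested members was higher and 0 lower at an adjusted p under 0.05, where 3.36% of all genes passed, 2.15% higher and 1.21% lower. With a fold above 1.2 as well, 0 of 5 members were called, against 1.21% of all genes (0.723% higher and 0.483% lower). The 0 stands beside 2 members (APOBEC3B and APOBEC3C) that were higher at an unadjusted p under 0.05, as were 7.83% of all genes, and DESeq2 and limma voom also called 0 by both conditions. The groups did not overlap in 2 of the 5 tested members, both with Olaparib higher, whereas 10.0% of all genes lay apart with Olaparib higher and 9.29% with Olaparib lower. The log2 fold change was above 0 in 4 of the 5 members and in 48.6% of all genes. Among the 3541 genes with a mean count of 500 to 1500, the range that holds APOBEC3B and APOBEC3C, 3.42% were higher at an adjusted p under 0.05. With so few members tested, a share over the family is a description only. The median log2 fold change was 0.19 over the 5 tested members and -0.0042 over all genes, but the 5 values ranged from -0.12 to 0.32 and 3 of them came from genes with 129 reads or fewer in total.

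Genes on either side of the cluster were examined within 150 kb. Of 16 annotated neighbours, 10 were listed in the counts table and 4 were tested, and 5 of the 10 had 0 counts in every library. PDGFB, which encodes a chain of platelet-derived growth factor and lies beyond APOBEC3H, rose from 3051 ± 67.1 to 3508 ± 120 normalised counts, or by 0.20 on the log2 scale (SE 0.038, adjusted p = 9.9e-04, edgeR). CBX7, CBX6 and NPTXR, of which the first 2 encode Polycomb proteins, had log2 fold changes of 0.10, 0.069 and 0.078 and did not pass (adjusted p of 0.41, 0.473 and 0.738, edgeR). None of the 4 neighbours passed the fold condition. Over all genes tested, 3.36% passed the adjusted p and 1.21% passed both conditions.

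**Figure D2:**
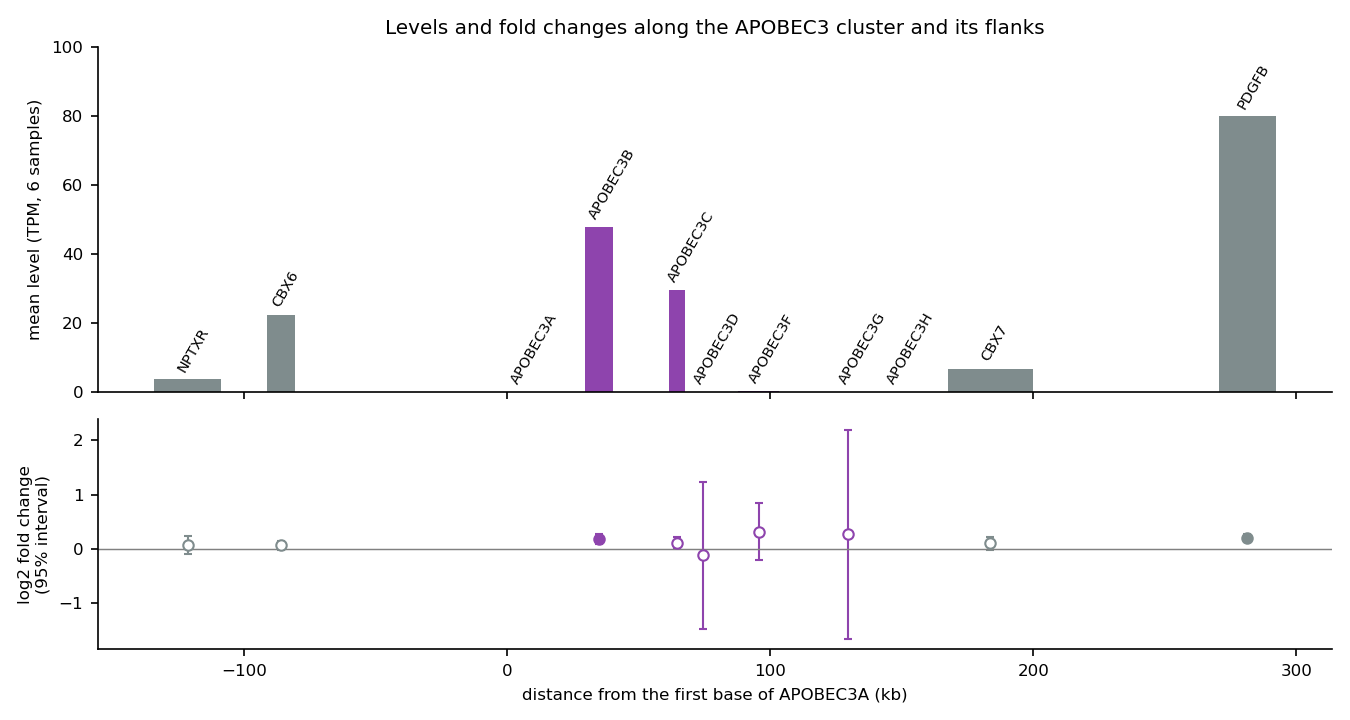
Mean TPM over the 6 samples (upper panel, bars as wide as each gene) and log2 fold change with its 95% interval (lower panel, filled where the adjusted p was under 0.05) against distance from the first base of APOBEC3A in kb, members in purple and neighbours in grey. APOBEC3B and APOBEC3C are the members with a visible level, and APOBEC3B and PDGFB are the filled points.

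Of the factors known to act on APOBEC3 promoters, 11 genes are reported here, all of which were tested. Of these, 2 rose and 0 fell at an adjusted p under 0.05, and none had a fold above 1.2. Over all genes tested, 2.15% were higher and 1.21% lower at that adjusted p. RELB, the subunit of noncanonical NF-kB that has been linked to APOBEC3B transcription, had 812, 834 and 773 normalised counts after Olaparib and 690.1, 707 and 684 after DMSO. RELB rose by 0.22 on the log2 scale (SE 0.049, adjusted p = 0.00735, edgeR), with adjusted p values of 0.058 without DMSO replicate 1 and 0.053 without DMSO replicate 3. MYBL2, or B-MYB, a cell-cycle activator that binds the APOBEC3B promoter, rose by 0.13 on the log2 scale (SE 0.029, adjusted p = 0.00681, edgeR). The adjusted p of MYBL2 was 0.057 without Olaparib replicate 2 and 0.0684 without DMSO replicate 2.

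The other 9 factors did not pass in edgeR's test. In the interferon arm, the log2 fold changes, each with its adjusted p, were 0.080 for STAT2 (0.399), -0.089 for IRF9 (0.781) and 0.051 for IRF1 (0.786). In the NF-kB arm, RELA had 0.10 (0.165), NFKB1 -0.051 (0.585) and NFKB2, the partner of RELB, 0.011 (0.947). Of the cell-cycle complexes DREAM and MuvB, E2F4 had 0.061 (0.555), LIN9 -0.023 (0.873) and LIN54 0.0070 (0.972). The log2 fold changes of the 11 genes ranged from -0.089 to 0.22.

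Downstream of deamination, 9 genes for uracil and abasic sites were all tested. At an adjusted p under 0.05, 0 rose and 1 fell, beside 2.15% and 1.21% of all genes tested. UNG, the main uracil-DNA glycosylase, had 4082, 4046 and 4125 normalised counts after Olaparib and 4539, 4749 and 4831 after DMSO. All treated samples lay below all control samples, and UNG fell by 0.20 on the log2 scale (SE 0.034, adjusted p = 2.2e-04, edgeR), a direction opposite to that of APOBEC3B. Its adjusted p stayed at or below 0.00763 with any single sample left out. The other 8 genes (the glycosylases SMUG1, TDG and MBD4, the endonuclease APEX1, the dUTPase DUT, HMCES, PRIMPOL and REV1) did not pass and had log2 fold changes between -0.038 and 0.043.

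**Figure D3:**
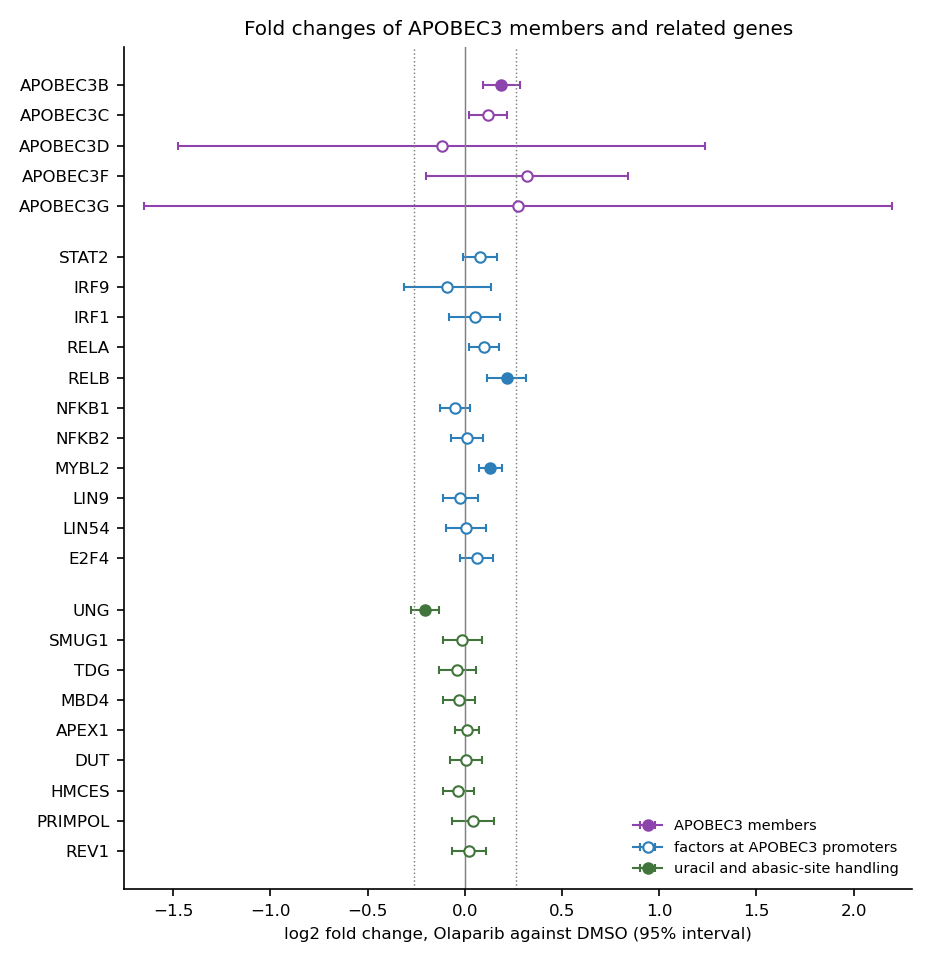
Log2 fold change, Olaparib against DMSO, with its 95% interval for the 5 tested members, 11 promoter factors and 9 genes for uracil and abasic sites, filled where the adjusted p was under 0.05 and with dotted lines at a fold of 1.2 in either direction. APOBEC3B, RELB and MYBL2 are filled to the right of 0 and UNG to the left, and the intervals of APOBEC3D and APOBEC3G span more than 2 log2 units.

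Of 5 relatives of the family and cofactors of APOBEC1, 2 were tested and 0 passed, beside 3.36% of all genes. APOBEC2 had 1 read in total, and APOBEC1 and APOBEC4 had 0. RBM47, a cofactor of APOBEC1, had 2119 ± 40.9 normalised counts after Olaparib and 2232 ± 41.9 after DMSO (log2 fold change -0.075, adjusted p = 0.387, edgeR), and A1CF, the other cofactor, had 44 reads in total (0.29, adjusted p = 0.843, edgeR).

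APOBEC3B and APOBEC3C were also set beside 20 interferon-induced reference genes, all tested. Of the 20, 14 were higher and 0 lower at an adjusted p under 0.05 in edgeR's test, 12 of them with a fold above 1.2. Over all genes tested, 2.15% were higher at that adjusted p, and 0.723% with a fold above 1.2 as well. The median log2 fold change of the 20 was 0.50. The 12 were the antiviral effectors IFIT1, IFIT3, MX1, OAS1, OAS2, OAS3 and RSAD2, the interferon-inducible IFI6, IFI27, IFI44 and IFI44L, and the transcription factor IRF7. Their log2 fold changes ran from 0.31 for IFI27 to 1.05 for MX1. Of these 12, IFI27 and IFI6 each passed in 2 of the 6 fits without a sample, those without Olaparib replicate 1 or DMSO replicate 3, and RSAD2 in 4 of the 6, not without Olaparib replicate 3 or DMSO replicate 1. The log2 fold change of IFI27 was 0.17 without Olaparib replicate 3, 0.20 without DMSO replicate 2 and 0.46 without DMSO replicate 3, and that of IFI6 was 0.32 without Olaparib replicate 3. The other 2 that passed had the values nearest to that of APOBEC3B. SAMHD1, which like the APOBEC3 enzymes restricts retroviruses, rose by 0.24 (SE 0.047, adjusted p = 0.00201, edgeR), with an adjusted p of 0.0663 without Olaparib replicate 3. ISG15, a ubiquitin-like modifier, rose by 0.25 (SE 0.060, adjusted p = 0.0113, edgeR), but its groups overlapped, DESeq2 gave an adjusted p of 0.355, and it passed in 3 of the 6 fits without a sample, with a value of 0.16 without Olaparib replicate 3. With DESeq2, 10 of the 20 were higher, without IFI44L, ISG15, IFI6 and IFI27, and the groups of IFI6 and IFI27 overlapped as well. Over all 20, values ranged from -0.076 for ISG20 to 1.10 for TRIM22, neither of which passed (adjusted p of 0.768 and 0.0738, edgeR). In 17 of the 20 the log2 fold change was larger than that of APOBEC3B, and in the same number it was larger than that of APOBEC3C. A difference between these members and the reference genes was not tested.

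The treated libraries differed among themselves in the reference genes. In all 14 that passed, Olaparib replicate 1 had the lowest and Olaparib replicate 3 the highest normalised count of the 3 treated samples. APOBEC3B had its lowest and highest treated values in the same libraries, whereas the lowest treated value of APOBEC3C was in Olaparib replicate 2. Among the controls, DMSO replicate 2 was lowest in 12 of the 14 reference genes, whereas DMSO replicate 1 was lowest for APOBEC3B. The part of these library differences in the APOBEC3B result was not tested beyond leaving each sample out.

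**Figure D4:**
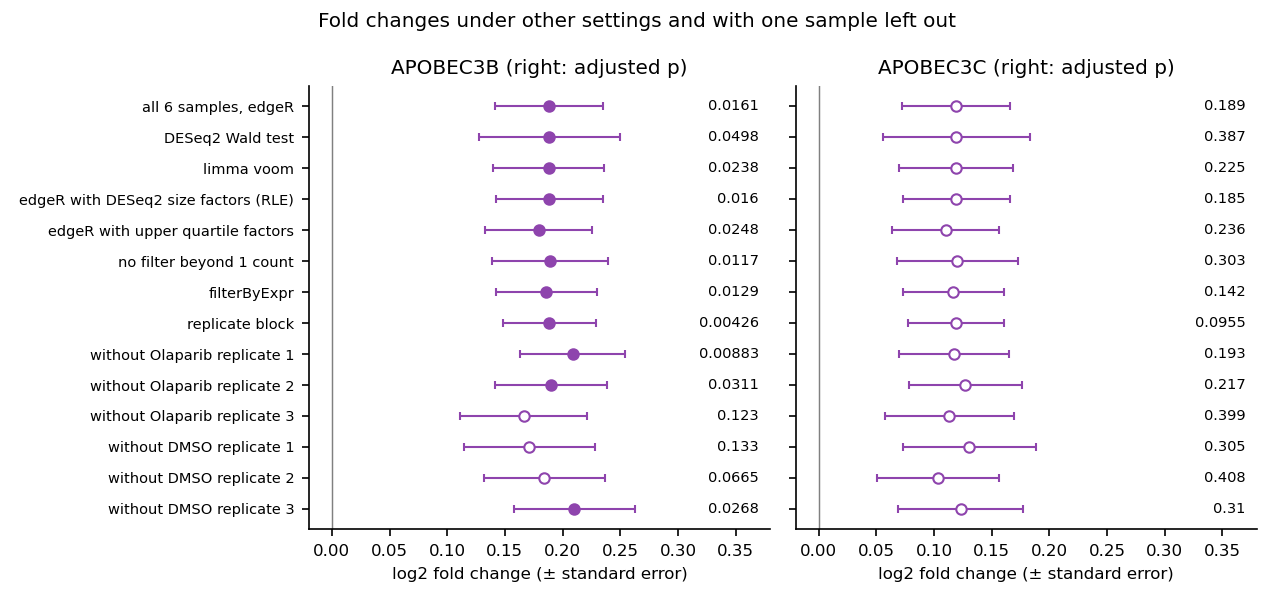
Log2 fold change with its standard error for APOBEC3B and APOBEC3C under each setting and with each sample left out, filled where the adjusted p (printed at the right) was under 0.05. All values lie above 0, APOBEC3B keeps an adjusted p under 0.05 in 3 of the 6 fits without a sample, and APOBEC3C in none of the fits.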

How the data were processed

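Poly(A) RNA of 3 Olaparib and 3 DMSO samples was sequenced by the study. According to its methods, the authors trimmed adapters with Trimmomatic, mapped reads to GRCh38 with STAR, identified duplicates with Picard and counted reads per gene by featureCounts. The authors deposited raw counts, whole numbers per gene and sample without normalization. Whether duplicates were removed, and the strand and multi-mapping settings, are not given in the sources used here.

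Samples were grouped by their labels. Genes with more than 10 counts in total were normalized by TMM and compared by the quasi-likelihood test of edgeR 4.0.16 (R 4.3.3) with Benjamini-Hochberg adjustment, after a test on simulated data. A gene was called at an adjusted p under 0.05 and a fold above 1.2. DESeq2 1.42.0, limma 3.58.1 (voom), other scalings and filters, a replicate block and leaving out each sample were the alternatives. Symbols, coordinates and exon lengths came from GENCODE release 44, which held 81.9% of the identifiers. Pairs of replicates differed by more than the sampling noise (chi-square over its degrees of freedom from 1.80 to 4.11). The members and lists were chosen with earlier results of these data known. Named were all members, list genes and neighbours with an adjusted p under 0.05, all other promoter factors and relatives, and, after their values were seen, the other tested neighbours, the marker and uracil genes that did not pass and the reference genes at the ends of their range. Depth limits precision through the counts per gene, and the exact intervals of count ratios and the floors cover counting error only, whereas edgeR's intervals include the spread between replicates. Of the genes on these lists, 3 are not reported here. The protein sequences of the members were not analysed here.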

Additional observations from a re-analysis of the deposited data

How the results depend on the processing

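The log2 fold change of APOBEC3B lay between 0.18 and 0.19 under the other tests, scalings, filters and the replicate block (adjusted p from 0.00426 to 0.0498) and between 0.17 and 0.21 with a sample left out (adjusted p from 0.00883 to 0.133, under 0.05 in 3 of 6 fits), so the number of members higher at an adjusted p under 0.05 was 0 to 1 there. The fits with a sample left out hold fewer samples, and the cause of the change in adjusted p was not tested. APOBEC3C stayed above an adjusted p of 0.05 throughout (0.0955 to 0.408). By adjusted p alone, 1 member and 730 genes were called in place of 0 and 262, since that rule drops the fold condition, and DESeq2 called 150 genes by both conditions. With a sample left out, the number of genes higher was 270 to 567 against 467, that of reference genes 9 to 16 against 14, and that of promoter factors 1 to 2 against 2. Direction turned with a sample left out, at adjusted p values well above 0.05, for APOBEC3D (-0.66 to 0.097), APOBEC3G (-0.24 to 0.82, fitted in 2 of 6 cases because it fell under the count filter in the others), A1CF (-0.0052 to 0.73), NFKB2 (-0.0043 to 0.028), LIN9 (-0.038 to 0.0050) and LIN54 (-0.019 to 0.044, and -0.0020 with upper quartile factors). Counts of 19 reads or fewer limit the first 2. The deviations of equal replicate numbers correlated at -0.156, 0.184 and -0.217 over 13121 genes, and 2 of 6 samples were closest to their own number. With 3 samples per group, these values cannot decide whether the numbers pair the samples. With the number as a replicate block, 805 genes were higher against 467 without it, and APOBEC3B had an adjusted p of 0.00426 (edgeR). The SE of APOBEC3B was 0.040 with the block and 0.047 without it. APOBEC3D and APOBEC3G had no value under edgeR's filterByExpr, and DESeq2 gave no adjusted p for them or for APOBEC3F.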

Other observations

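The genes whose log2 CPM most resembled those of APOBEC3B over the 6 samples, among 14807 genes with a mean of at least 20 counts, were SYNE2, BLVRB and TUBA1C (Pearson's r of 0.997, 0.995 and 0.994). This is a description over 6 libraries that share their groups and depth, and 478 genes had an r above 0.9. Their log2 fold changes were 0.16 for SYNE2, a nuclear envelope protein, 0.22 for BLVRB, a biliverdin reductase, and 0.14 for TUBA1C, an alpha-tubulin, with adjusted p values of 0.0295, 0.0135 and 0.00152 from edgeR. APOBEC3B was looked at this way after it was seen to pass the adjusted p.

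PAX8, a transcription factor that marks Müllerian epithelium, had a log2 fold change of 0.10 (SE 0.029, adjusted p = 0.04, edgeR). The adjusted p of PAX8 was 0.0604 with upper quartile factors and 0.024 to 0.206 with a sample left out, under 0.05 in 1 of 6 fits.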
